A study of Homo sapiens with 6 samples.

Results

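The 3 empty vector arrays of a *circAAGAB* study in MDA-MB-231 cells were taken alone, and all named genes were ranked by their mean log2 signal over them. These are 3 of the 6 arrays in the series. The other 3, from cells that overexpressed *circAAGAB*, were not compared here. Of 21448 probe sets on the array, 17709 carried 1 gene symbol, which gave 17687 genes, and 3739 were unnamed here. The cells had been grown in DMEM with fetal bovine serum and penicillin-streptomycin and transfected with the control plasmid by the TransIT-X2 reagent, and RNA was taken 24 h later. The control cells therefore also carried a plasmid and a transfection reagent, and no untransfected cells were analysed here. Nothing in the labels says whether the 3 arrays came from separate cultures, so their spread may be technical. All values below are RMA signals on the log2 scale, on which a step of 1 is a 2-fold difference.

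MDA-MB-231 is an established line of human triple-negative breast cancer, that is, a cancer without estrogen receptor, progesterone receptor or amplified HER2. Breast cancer lines are commonly placed along an axis from luminal, with hormone receptors and epithelial junctions, to basal and mesenchymal-like, with vimentin filaments and little E-cadherin. MDA-MB-231 is widely used as an invasive, mesenchymal-like line, and its surface receptors and secreted proteins are much studied for that reason. Breast cell markers were therefore read first, and markers of other tissues were read with them.

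An array reports a signal for every probe set, also where no transcript is present, so a gauge of background was needed. Olfactory receptor genes, which are used by sensory neurons of the nose, served as that gauge. The 95th percentile of 349 such genes was 4.81, 4.56 and 4.53 on replicates 1, 2 and 3. A stricter gauge came from 106 taste receptor and keratin-associated protein genes, whose 95th percentile was 6.72, 6.67 and 6.56. The gauges lay about 2 log2 units apart, so calls over all genes and over the gene lists are counted against both. Some other counts, as of histone genes, motifs and spread between arrays, use the olfactory receptor gauge alone. A gene between the gauges has a signal that these values do not settle as background or transcript. Each gene was called above or below a gauge where its distance from the gauge of its own array passed limma at an adjusted p under 0.05.

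By the olfactory receptor gauge 11636 of 17687 genes (65.8%) were above, 4369 (24.7%) were below and 1682 (9.51%) were not separated from it. By the stricter gauge 5721 genes (32.3%) were above, 10127 (57.3%) were below and 1839 (10.4%) were not separated. Between the gauges, 5915 genes (33.4%) were above the first and not above the second. The olfactory receptors themselves were below their own gauge in 92.3% and above it in 3.44%, or 12 genes, as its definition nearly fixes. Mean signals over all genes had a median of 5.92, with the middle 50% between 4.34 and 7.42, 1% above 10.63, and a highest value of 12.55. The 3 genes on each side of the olfactory receptor gauge, *LOC442028*, *C1orf94* and *IRGC* just below and *PSTPIP2*, *PLIN1* and *SPATA33* just above, had means that all rounded to 4.64.

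**Figure D1:**
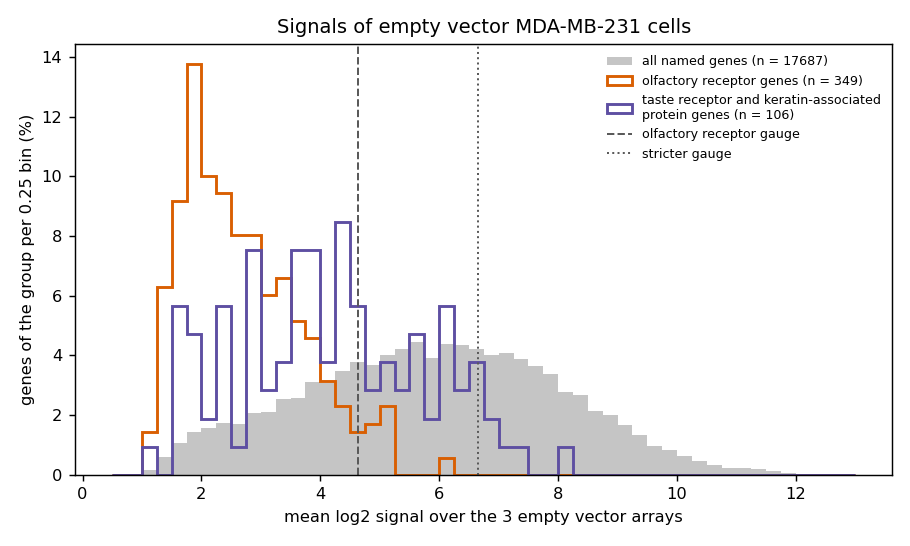
Share of genes (%) per bin of 0.25 against the mean log2 signal over the 3 empty vector arrays, for all 17687 named genes (grey), 349 olfactory receptor genes (orange outline) and 106 taste receptor and keratin-associated protein genes (purple outline). The dashed line at 4.64 and the dotted line at 6.65 are the means of both gauges, and most genes lie above the first while 32.3% were called above the second.

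The genes of highest signal came from the cytoskeleton, the ribosome, metal binding and glycolysis. *TUBA1B*, an alpha-tubulin of the microtubules, led with signals of 12.56, 12.57 and 12.52. *MT2A*, a metallothionein that binds zinc, copper and cadmium, followed with 12.38, 12.62 and 12.58. *EEF1A1*, the elongation factor that brings aminoacyl-tRNA to the ribosome, gave 12.38, 12.43 and 12.43. The order of these genes was not fixed from array to array, since *TUBA1B* was highest on replicate 1 and *MT2A* on replicates 2 and 3. *ANXA2*, a calcium-dependent membrane-binding annexin, gave 12.24, 12.32 and 12.30, and its partner *S100A10*, with which it forms a heterotetramer, 11.52, 11.75 and 11.72. *GAPDH* and *ENO1*, enzymes of glycolysis, gave 12.30, 12.22 and 12.17 and 12.02, 11.97 and 11.93. In both glycolytic genes replicate 1 was the highest array, and in *ANXA2* and *S100A10* it was the lowest. *PPIA*, or cyclophilin A, the target of cyclosporin, gave 12.10, 12.23 and 12.23.

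Other cytoskeletal genes were also among the 100 genes of highest signal. *ACTG1*, a cytoplasmic actin, gave 12.03, 12.02 and 11.99. *TUBA1C* gave 11.99, 11.99 and 11.93, and *PFN1*, profilin 1, which binds actin monomers, 11.79, 11.87 and 11.82. *VIM*, the intermediate filament protein vimentin, ranked 35 with 11.50, 11.57 and 11.59. The alpha-tubulins and the actin were lowest on replicate 3, and vimentin on replicate 1. All 25 genes measured of the cytoskeleton list were above both gauges, against 65.8% and 32.3% of all genes. Their median was 11.06, and 12 of them were among the 100. The list was made by hand with earlier results of these data known, so its shares do not stand for all cytoskeletal genes. Of all 23 tubulins measured, 19 were above the olfactory receptor gauge, with a median of 7.92 and a lowest mean of 3.33. Near-identical tubulin and actin copies share sequence, so the probe sets of this group may read more than 1 gene.

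Ribosomal protein genes were the most frequent family, with 25 of the 100 places. *RPL38*, of the large subunit, gave 12.10, 12.08 and 12.10, and *RPS10*, of the small subunit, 12.22, 11.99 and 11.999. *RPS23* gave 11.77, 11.81 and 11.86, and *RPS15* 11.82, 11.81 and 11.80. *RPS21* gave 11.85, 11.72 and 11.80, and *RPL12* 11.82, 11.68 and 11.71. *RPS10*, *RPS21* and *RPL12* were highest on replicate 1, and *RPS23* was lowest on it. All 52 family members measured were above the olfactory receptor gauge and 49 were above the stricter one, against 65.8% and 32.3% of all genes. Their median was 10.99. Their range went from 12.09 down to 5.16 at *RPL10L*, a paralog used mainly in the testis. Ribosomal protein genes also have many processed pseudogenes of near-identical sequence.

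The ribosomal genes share a feature that the ranking did not use. Transcripts of vertebrate ribosomal proteins and elongation factors start within a run of pyrimidines, the terminal oligopyrimidine tract, which places their translation under growth factor control through mTOR. Start site windows of 60 bases, 40 before the RefSeq start and 20 from it (GRCh38.p14), are shown. For 4 ribosomal genes and *EEF1A1* the pyrimidine run over the start is in capitals. In *TUBA1B* and *GAPDH* the first base was no pyrimidine.
RPL38 (chr17:74203638-74203697, plus strand): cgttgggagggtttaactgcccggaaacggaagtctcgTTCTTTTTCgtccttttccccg
RPS10 (chr6:34426050-34426109, minus strand): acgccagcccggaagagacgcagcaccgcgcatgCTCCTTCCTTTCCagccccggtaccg
RPS23 (chr5:82278335-82278394, minus strand): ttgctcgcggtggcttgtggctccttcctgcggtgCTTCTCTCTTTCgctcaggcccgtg
RPL12 (chr9:127451387-127451446, minus strand): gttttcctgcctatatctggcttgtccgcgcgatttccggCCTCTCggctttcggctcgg
EEF1A1 (chr6:73521013-73521072, minus strand): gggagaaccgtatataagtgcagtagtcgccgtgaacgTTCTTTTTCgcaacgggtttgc
TUBA1B (chr12:49131376-49131435, minus strand): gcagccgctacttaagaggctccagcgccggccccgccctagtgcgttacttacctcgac
GAPDH (chr12:6535224-6535283, plus strand): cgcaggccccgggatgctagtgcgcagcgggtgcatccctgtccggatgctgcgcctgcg

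The run was 9 bases in *RPL38* and *EEF1A1*, 13 in *RPS10*, 12 in *RPS23* and 6 in *RPL12*. Runs were read on the strand that has the sequence of the transcript. A run of at least 6 pyrimidines over the annotated start was present in 31 of 46 ribosomal protein genes with a RefSeq promoter (67.4%). Among all 14250 genes with a promoter it was present in 924 (6.48%). Among the 100 genes of highest signal the share was 30.6% (26 of 85), and without the ribosomal proteins it was 11.3% (7 of 62). These are descriptions of letters at annotated starts, with no test.

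Metallothioneins, small cysteine-rich proteins that bind metal ions, were the other compact family at the top. *MT1B* gave 11.71, 11.996 and 11.905, beside the *MT2A* values above. Both were lowest on replicate 1 and highest on replicate 2. All 9 metallothionein genes measured were above both gauges, as were 32.3% of all genes. Their means ran from 9.42 to 12.53 with a median of 11.25, and 5 were among the 100. The members are so alike in sequence that signals of single genes are uncertain, as some may be read from *MT2A*. In vertebrates, metallothionein genes are switched on by zinc through the factor MTF1, which binds metal response elements with the core TGCNCNC. The 200 bases before the start of the leading members (GRCh38.p14) are shown for these elements, with every TGCNCNC match on either strand in capitals.
MT2A (chr16:56608384-56608583, plus strand): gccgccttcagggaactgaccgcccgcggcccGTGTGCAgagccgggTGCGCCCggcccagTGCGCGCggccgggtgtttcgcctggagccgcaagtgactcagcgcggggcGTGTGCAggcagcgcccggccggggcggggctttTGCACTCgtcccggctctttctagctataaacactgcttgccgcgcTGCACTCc
MT1B (chr16:56651686-56651885, plus strand): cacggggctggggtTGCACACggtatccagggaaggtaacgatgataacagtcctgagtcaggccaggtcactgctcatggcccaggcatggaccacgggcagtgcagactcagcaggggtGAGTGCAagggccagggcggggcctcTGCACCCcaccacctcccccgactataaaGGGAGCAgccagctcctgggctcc

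The *MT2A* stretch held 6 matches and that of *MT1B* 4. Of all 14250 promoters, 152 (1.07%) had at least 4 matches in these 200 bases and 13 (0.0912%) at least 6. A single match somewhere in the window of 300 bases, 250 before the start and 50 after, was common, with 60.7% of all promoters. Only 4 of the 9 metallothionein genes had a promoter in the table, and all 4 held a match.

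Among histone genes, which supply chromatin during DNA replication, the signals ran from near the top of the range to background. *H2BC12*, which codes for histone H2B, gave 12.21, 12.04 and 11.95, and *H4C3*, which codes for histone H4, gave 11.62, 11.77 and 11.79. Replicate 1 was thus the highest array for the first and the lowest for the second. Of 67 histone genes, 51 were above the olfactory receptor gauge, beside 65.8% of all genes. They were not counted against the stricter gauge. Among the 100 were 5 of them, and their means went from 12.07 to 1.89, with a median of 6.96. Replication-dependent histone genes are short, have no introns and are near-identical within a type, so the array may not tell them apart. H2B promoters carry an octamer, ATTTGCAT, which is bound by OCT1, next to CCAAT and TATA boxes, and the 200 bases before the start of *H2BC12* (GRCh38.p14) show it in capitals.
H2BC12 (chr6:27146859-27147058, minus strand): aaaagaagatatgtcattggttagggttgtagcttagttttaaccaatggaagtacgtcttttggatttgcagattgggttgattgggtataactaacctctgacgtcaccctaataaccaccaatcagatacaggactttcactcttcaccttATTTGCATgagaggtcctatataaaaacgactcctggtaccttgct

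Of 17 H2B genes, 14 held ATTTGCAT on either strand of the 300-base window (82.4%), against 233 of all 14250 promoters (1.64%). CCAAT was present in 100% of the H2B promoters and in 36.4% of all. TATAAA was present in 70.6% against 9.41%. Over all genes, TATAAA was present in 6.22% of promoters of genes above the olfactory receptor gauge and in 18% of those below it. GGGCGG, the core of the GC box bound by SP1, showed the opposite order, with 69.3% above and 34.2% below. The 100 genes of highest signal did not share the low TATAAA rate of the genes above the gauge. They held TATAAA in 20% (17 of 85), and in 25.8% without the ribosomal proteins. GGGCGG was present in 71.8% of the 100. All motifs were searched on both strands, and matches of different motifs may overlap.

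The eighth rank was held by a probe set named for a microRNA. *MIR4485* gave 12.01, 12.10 and 12.16. Its gene (chr11:10508270-10508326) lies inside *MTRNR2L8* (chr11:10507887-10509176), annotated as a pseudogene and known as a nuclear copy of mitochondrial 16S ribosomal RNA. The mature sequence is given with its seed, bases 2 to 8, in capitals, because it belongs to the only microRNA name among the 100 genes.
hsa-miR-4485-3p (chr11:10508277-10508296, minus strand): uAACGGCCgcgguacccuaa

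Of 11 probe sets named for microRNAs, 9 were above the olfactory receptor gauge and 2 above both gauges, beside 65.8% and 32.3% of all genes. The sequence of the *MIR4485* probe set was not used here, so which transcript it read was not tested. The signal is therefore not given as a microRNA level.

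The remaining leading genes were of membranes, folding and secretion. *CALR*, calreticulin, a calcium-binding chaperone of the endoplasmic reticulum, gave 11.73, 11.74 and 11.72. *IFITM3*, a membrane protein that restricts virus entry and is induced by interferon, gave 11.70, 11.72 and 11.62. *EMP3*, a membrane protein of the PMP22 family, gave 11.88, 11.93 and 11.79. *IGFBP7*, a secreted protein that binds insulin-like growth factors, gave 11.72, 11.62 and 11.58 and ranked 25. Its 3 values lay in the reverse order of those of *RPS23*, which shows how the arrays exchange places among genes of like signal.

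**Figure D2:**
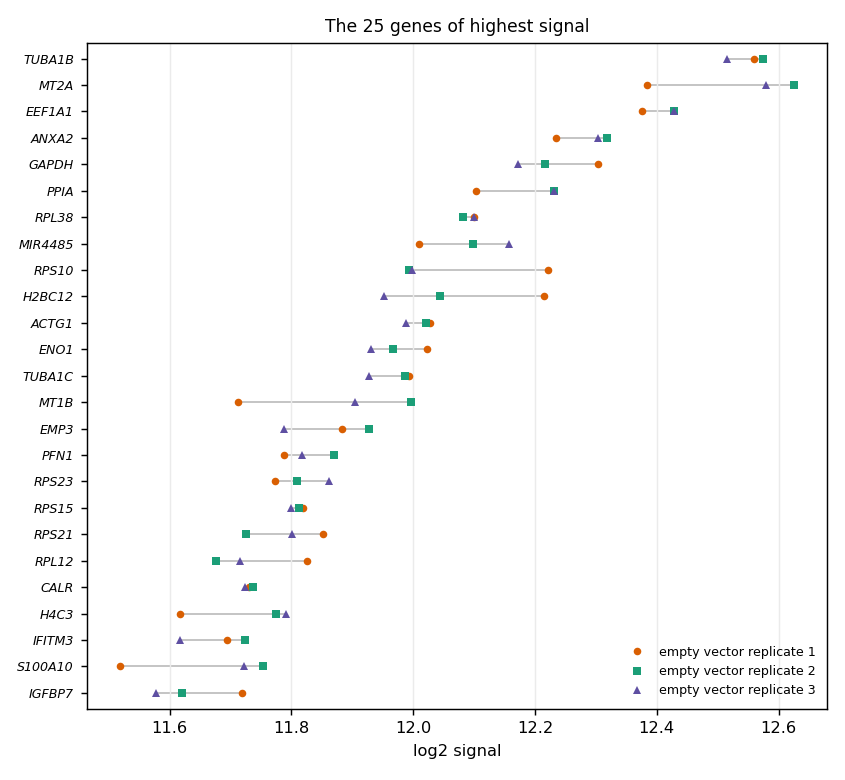
Log2 signal of the 25 genes of highest mean on each of the 3 empty vector arrays (x axis, which does not start at 0), with a circle, a square and a triangle for replicates 1, 2 and 3. The means fall from 12.55 for *TUBA1B* to 11.64 for *IGFBP7*, and the widest gaps between arrays, as for *MT1B* and *MT2A*, have replicate 1 apart from replicates 2 and 3.

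The order within this set was less stable than the set. Means of the 100 genes spanned 2.77-fold, from 12.55 to 11.08, and the median SD of the 100 was 0.07. Of the 24 neighbouring pairs among the 25 leading genes, 5 kept their order on all 3 arrays. The lowest rank that any of these 25 took on an array was 39. In all, 84 genes were among the 100 on every array. The lists of replicates 2 and 3 shared 93 genes, and those of replicate 1 shared 88 with replicate 2 and 84 with replicate 3. Probe sets also differ in how strongly they bind, so the order is one of signals and does not count transcripts. Chromosome 6 held 11 of the 100 genes and 5.24% of all genes, and chromosome 1 held 10 and 10.2%.

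The lists of general cell functions lay high. They were made by hand with earlier results of these data known, so their counts describe the listed genes only. Over all genes 65.8% were above the olfactory receptor gauge and 32.3% above the stricter one. All 21 respiratory chain genes measured, 17 genes of the proteasome and ubiquitin and 21 genes of cell proliferation were above both gauges, with medians of 9.18, 9.45 and 9.54. *ATP5F1B*, the catalytic beta subunit of ATP synthase, gave 11.33, 11.35 and 11.31. *PLK1*, a kinase of mitosis, gave 10.67, 10.68 and 10.62 and had the highest mean of the proliferation genes. In glycolysis 22 of 23 genes were above the olfactory receptor gauge and 16 above the stricter one, with a median of 9.33. The translation factors (11 of 11, and 10) and the iron and redox genes (17 of 17, and 16) had medians of 10.22 and 10.02. Of 13 antigen presentation genes 12 were above the first gauge and 9 above the second. *B2M*, the light chain of MHC class I, gave 11.10, 11.05 and 11.11, and *CD74*, the invariant chain of class II, 9.04, 8.85 and 8.70. *HLA-DQA1*, a class II chain, was not separated from the olfactory receptor gauge (4.81, 4.76 and 4.92, adjusted p = 0.163) and was below the stricter one, and without replicate 1 it was called above the first. *AAGAB*, the host gene of *circAAGAB*, which codes for an adaptor protein-binding protein, ranked 3782 with 7.71, 7.56 and 7.73, above both gauges. The probe set was not shown to separate linear from circular *AAGAB* transcripts.

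Among the breast lineage markers, vimentin and the keratins of simple epithelia both gave high signals, while the estrogen and progesterone receptors and E-cadherin did not. Of 20 mesenchymal genes measured, 16 (80%) were above the olfactory receptor gauge and 12 (60%) above the stricter one, against 65.8% and 32.3% of all genes, and their median was 7.65. Of 20 genes of epithelial junctions, 12 (60%) and 8 (40%) were above, with a median of 5.53. Of 17 luminal genes, 10 (58.8%) and 5 (29.4%) were above, with a median of 6.11. Of 12 basal and myoepithelial genes, 10 (83.3%) and 5 (41.7%) were above, with a median of 6.72. The luminal and junction shares above the first gauge lay near that of all genes.

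On the mesenchymal side *VIM* led, at the signals given above. *MSN*, moesin, which links actin to the plasma membrane, gave 10.69, 10.76 and 10.82. *CD44*, the hyaluronan receptor that marks stem-like and mesenchymal breast cells, gave 9.92, 9.94 and 10.02. The list was not uniformly high. *CDH2*, N-cadherin, gave 3.75, 2.66 and 3.04, below the olfactory receptor gauge (adjusted p = 0.000337). *SPARC*, a matrix protein of stromal cells, gave 3.35, 3.30 and 3.19, and *TWIST2*, a transcription factor of mesenchymal cells, 3.31, 3.21 and 3.64. *THY1*, a surface protein of fibroblasts, gave 4.08, 3.85 and 4.16, and it too was below the gauge, as were *SPARC* and *TWIST2* on all 3 arrays.

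On the epithelial side the keratins of simple epithelia were high and the adhesion genes were mixed. *KRT8* gave 11.24, 11.05 and 10.92, its partner *KRT18* 10.43, 10.19 and 10.11, and *KRT19* 9.91, 9.47 and 9.41. All 3 were highest on replicate 1 and lowest on replicate 3. *KRT7*, another simple keratin, gave 9.17, 9.08 and 8.90. *CLDN4*, a claudin of tight junctions, gave 9.05, 8.66 and 8.64, and *EPCAM*, an epithelial adhesion molecule, 7.53, 7.77 and 7.82. Of the desmosome genes, *DSP*, desmoplakin, gave 7.64, 7.84 and 8.16 and *DSG2*, desmoglein 2, 7.26, 7.57 and 7.95, above both gauges, but others of the list were not above the stricter one. *CDH1*, E-cadherin, the adhesion protein of adherens junctions, gave 3.32, 3.65 and 3.41, a distance of -1.17 from the olfactory receptor gauge (adjusted p = 0.000369). *TJP3*, a scaffold protein of tight junctions, gave 3.37, 3.13 and 3.30. *RAB25*, an epithelial small GTPase, gave 2.00, 2.50 and 2.32 and had the lowest mean of its list.

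The hormone receptors of the clinical classification were at or below the olfactory receptor gauge as set here, the 95th percentile. *ESR1*, the estrogen receptor alpha, gave 4.98, 4.37 and 4.55, and was not separated from the gauge (adjusted p = 0.974). Its values lay above the gauge of the array on replicates 1 and 3 and below it on replicate 2. With the 90th percentile as the gauge *ESR1* was called above it (0.49), and with the 99th below it (-0.65). *PGR*, the progesterone receptor, gave 2.00, 1.49 and 1.81 and was below the gauge, at a distance of -2.87 (adjusted p = 3.41e-06). *GREB1*, a target gene of the estrogen receptor, gave 4.42, 4.28 and 3.66 and was below the gauge, a call lost without replicate 3. *FOXA1*, a factor that opens chromatin for the receptor, gave 4.63, 4.45 and 4.29 and was not separated from the gauge (adjusted p = 0.122). *FOXA1* too was called above the 90th percentile (0.31) and below the 99th (-0.82). *ERBB3*, the partner of HER2, gave 4.41, 4.03 and 4.12 and was below the gauge, a call lost without replicate 2. *ERBB2* was not analysed here. Luminal genes other than keratins that were above both gauges included *XBP1*, a factor of the unfolded protein response, with 8.23, 8.22 and 8.14, and *SLC39A6*, a zinc importer, with 8.18, 8.45 and 8.63.

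Of the basal genes, *CAV1*, caveolin 1, gave 10.44, 10.74 and 10.77, and *EGFR*, the epidermal growth factor receptor, 8.68, 8.63 and 8.76. *TRIM29* gave 7.01, 7.09 and 7.05, above both gauges. The keratins of basal cells were lower, with *KRT5* at 5.75, 5.61 and 5.68, between the gauges, and *KRT14* at 3.96, 4.09 and 3.66, below both. Of the contractile genes of myoepithelial cells, *ACTA2*, smooth muscle actin, gave 5.91, 5.83 and 5.90, and *CNN1*, calponin 1, gave 5.25, 4.67 and 4.59 and was not separated from the olfactory receptor gauge (adjusted p = 0.159).

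Of 11 genes used to mark stem-like breast cells, 6 (54.5%) were above the first gauge and 3 (27.3%) above the second, with a median of 4.97. Both shares were below those of all genes, 65.8% and 32.3%. *CD24*, a surface glycoprotein that is low in CD44+ CD24- cells, gave 6.92, 7.01 and 7.17, just above the stricter gauge. *PROM1*, or CD133, gave 3.24, 3.65 and 3.61, and *NANOG*, a pluripotency factor, 3.57, 4.03 and 3.11, all below the olfactory receptor gauge. *CD44* and *CD24* come from different probe sets, so their difference in signal is no ratio of transcripts. In bulk RNA, few cells with a gene and little of its RNA per cell cannot be told apart.

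The lists of other tissues all had medians below that of all genes, 5.92, as had the epithelial junction (5.53) and stem-like (4.97) lists. Of 16 blood cell genes, 6 (37.5%, against 65.8% of all genes) were above the olfactory receptor gauge, with a median of 4.56. Above the stricter gauge was 1 (6.25%, against 32.3%). The single gene was *CD68*, a lysosomal protein of macrophages that many other cells also make, at 9.03, 8.85 and 8.74. The T cell genes *CD2* (1.32, 1.26 and 1.51) and *CD3D* (2.87, 2.70 and 2.84) were below both gauges. *HBA1*, alpha-globin, gave 6.57, 6.57 and 6.42, and *GZMB*, granzyme B, 6.42, 6.52 and 6.49, above the first gauge and not separated from the second.

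Of 12 endothelial genes, 8 (66.7%, against 65.8% of all genes) were above the first gauge and 1 (8.33%, against 32.3%) above the second, with a median of 5.51. The gene above both was *ESAM*, an adhesion molecule of endothelial junctions, at 8.80, 8.64 and 8.41. The other genes above the first gauge were below the stricter one, among them *VWF*, von Willebrand factor, at 6.45, 6.27 and 6.15. The 4 genes below the first gauge included *PECAM1* (4.03, 4.38 and 4.13) and *TEK* (2.48, 2.09 and 2.68). Of 11 fibroblast and stromal genes, 3 (27.3%, against 65.8% of all genes) and 1 (9.09%, against 32.3%) were above, with a median of 4.59. *COL1A2*, a chain of collagen I, gave 7.40, 7.50 and 7.15, while *FAP*, fibroblast activation protein, gave 2.37, 2.32 and 2.51. *POSTN*, periostin, gave 2.24, 2.46 and 2.93, and *LUM*, lumican, 3.30, 3.44 and 3.90.

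No marker of neurons and glia (5 of 11 above the first gauge, median 4.95), hepatocytes (2 of 9, 3.82), muscle (3 of 9, 4.79) or melanocytes (2 of 7, 4.10) was above the stricter gauge, against 32.3% of all genes. In that order, 45.5%, 22.2%, 33.3% and 28.6% were above the first gauge, against 65.8% of all genes. *MBP*, myelin basic protein, gave 6.19, 6.28 and 6.48, and *ACTN2*, the muscle alpha-actinin, 6.52, 6.62 and 6.49. *MITF*, a transcription factor of melanocytes, gave 6.58, 6.75 and 6.75, and was not separated from the stricter gauge. *SERPINA1*, alpha-1 antitrypsin of the liver, gave 5.69, 5.69 and 5.66. These 4 genes had the highest means of their lists. Albumin, *ALB*, at 3.89, 3.68 and 2.85 and tyrosinase, *TYR*, at 2.42, 2.52 and 2.86 were below the olfactory receptor gauge.

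**Figure D3:**
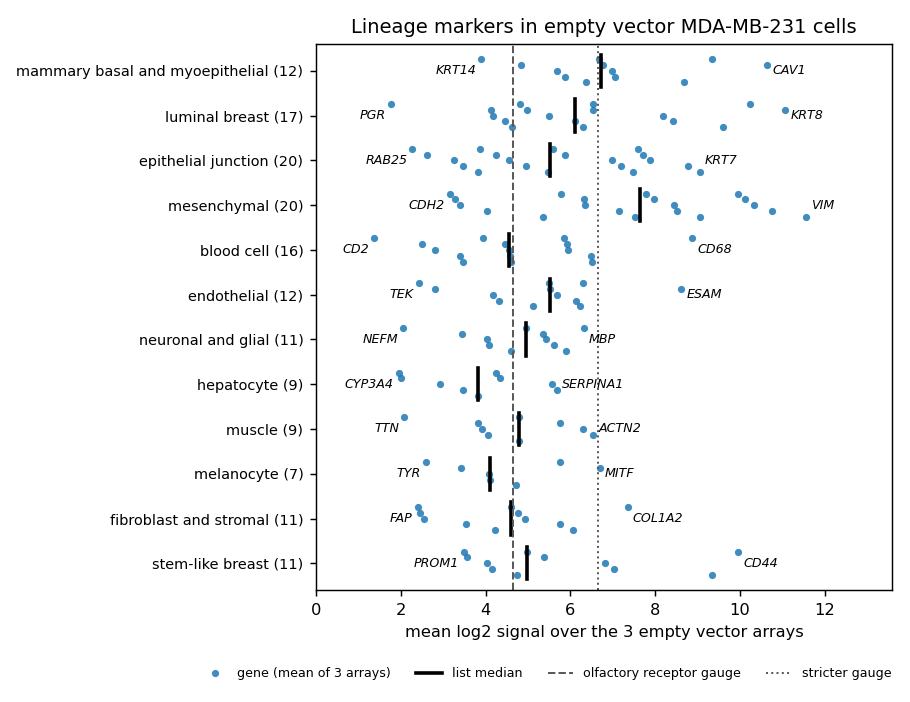
Mean log2 signal over the 3 empty vector arrays (x axis) of every measured gene of 12 lineage lists, with the number of genes in brackets, the list median as a black bar, the highest and lowest gene named, and both gauges as vertical lines. The mesenchymal list has the highest median, 7.65, and no neuronal, hepatocyte, muscle or melanocyte gene was called above the stricter gauge.

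Among the receptor tyrosine kinases, 17 of 27 genes were above the olfactory receptor gauge (63%, against 65.8% of all genes) and 8 above the stricter one (29.6%, against 32.3%). Both shares were close to those of all genes. *AXL*, the receptor of GAS6, had the highest mean, with 10.43, 10.24 and 10.31. *ROR1*, a receptor of WNT5A, gave 8.9999, 9.48 and 9.60, and *MET*, the receptor of hepatocyte growth factor, 8.93, 9.40 and 9.56. Both were lower on replicate 1 by more than the other 2 arrays differed. *EPHA2*, an ephrin receptor, gave 8.31, 8.35 and 8.28. *FLT1*, a VEGF receptor of endothelial cells, gave 1.91, 1.54 and 1.34, *KIT*, the receptor of stem cell factor, 2.05, 1.76 and 2.35, and *FGFR2* 4.19, 4.14 and 4.04, all below the first gauge. *HGF*, the ligand of MET, gave 2.74, 3.76 and 3.19 and was also below it.

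Of 15 nuclear receptor genes, *ESR1* and *PGR* included, 11 (73.3%) and 5 (33.3%) were above the gauges, with a median of 6.41. The shares over all genes were 65.8% and 32.3%. *RXRB*, a common heterodimer partner, gave 8.75, 8.39 and 8.39. *NR3C1*, the glucocorticoid receptor, gave 7.75, 8.31 and 8.55, with replicate 1 the lowest. *VDR*, the vitamin D receptor, gave 7.65, 7.40 and 7.65, and *PPARD*, a fatty acid-sensing receptor, 7.75, 7.71 and 7.74.

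Of the cytokine and death receptors, 20 of 21 were above the first gauge (95.2%, against 65.8% of all genes). Above the second were 14 (66.7%, against 32.3%), and the median was 7.31. *TNFRSF12A*, the receptor of TWEAK, gave 10.06, 9.80 and 9.60, and *IFNGR2*, a chain of the interferon gamma receptor, 9.73, 9.45 and 9.32. *IL7R* gave 8.60, 9.03 and 9.29, and *IL6ST*, the signalling chain shared by receptors of the interleukin 6 family, 8.29, 8.94 and 9.35. *TNFRSF12A* and *IFNGR2* were highest on replicate 1, and *IL7R* and *IL6ST* were lowest on it. *IL2RA*, the alpha chain of the interleukin 2 receptor of T cells, was the only member below the gauge, with 3.77, 3.74 and 3.69.

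Among the receptors of the TGF-beta family, 8 of 10 (80%) were above the first gauge and 3 (30%) above the second. The shares over all genes were 65.8% and 32.3%. *TGFBR2* gave 8.73, 8.79 and 8.67, *TGFBR1* 7.997, 8.42 and 8.50, and *BMPR1B*, below the gauge, 3.88, 3.88 and 4.09. Of 13 receptors of Notch, Wnt and Hedgehog ligands, 11 (84.6%) and 4 (30.8%) were above. None was below the first gauge at an adjusted p under 0.05. *NOTCH2* gave 8.35, 8.73 and 8.88. G protein-coupled receptors were above the first gauge in 15 of 19 (78.9%), with a median of 6.22. Against the second gauge all of these lists lay below the share of all genes, and 4 G protein-coupled receptors (21.1%) were above it. Those 4 were *ADGRE5*, an adhesion receptor that binds CD55, with 9.63, 9.86 and 9.77, *LPAR1*, a receptor of lysophosphatidic acid, with 9.51, 9.64 and 9.59, *ADORA2B*, an adenosine receptor, with 8.998, 8.93 and 8.83, and *CXCR4*, the receptor of CXCL12, with 8.52, 8.30 and 8.16. *CCR7*, a chemokine receptor of lymphocytes, gave 3.53, 3.68 and 3.28, and *PTGER2*, a prostaglandin E2 receptor, 3.41, 3.48 and 3.39.

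Matrix and endocytic receptors had the highest median of the receptor lists, 8.23. Above the first gauge were 13 of 15 (86.7%, against 65.8% of all genes) and above the second 11 (73.3%, against 32.3%). *NT5E*, or CD73, which makes adenosine from AMP, gave 10.72, 11.04 and 11.18, and *BSG*, basigin, 10.48, 10.46 and 10.31. *PLAUR*, the urokinase receptor, gave 9.76, 9.43 and 9.46, and *TFRC*, the transferrin receptor, 8.53, 9.07 and 9.26. *CD36*, a fatty acid receptor, was below the gauge with 3.80, 3.71 and 3.55. Of 18 integrin genes, 13 (72.2%, against 65.8% of all genes) and 8 (44.4%, against 32.3%) were above the gauges. *ITGB1*, the beta chain most alpha chains pair with, gave 10.73, 11.08 and 11.25. The alpha chains that pair with it were spread over the range. *ITGA3* gave 10.34, 10.22 and 10.21 and *ITGA5*, of the fibronectin receptor, 9.01, 8.92 and 8.89. *ITGA2* gave 8.14, 8.66 and 8.92, and *ITGA6*, a laminin receptor chain, 8.92, 9.53 and 9.59. *ITGA8*, another of its partners, was below the first gauge with 3.72, 3.97 and 3.47, and *ITGB6*, a beta chain of epithelia, gave 2.78, 2.19 and 2.05.

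**Figure D4:**
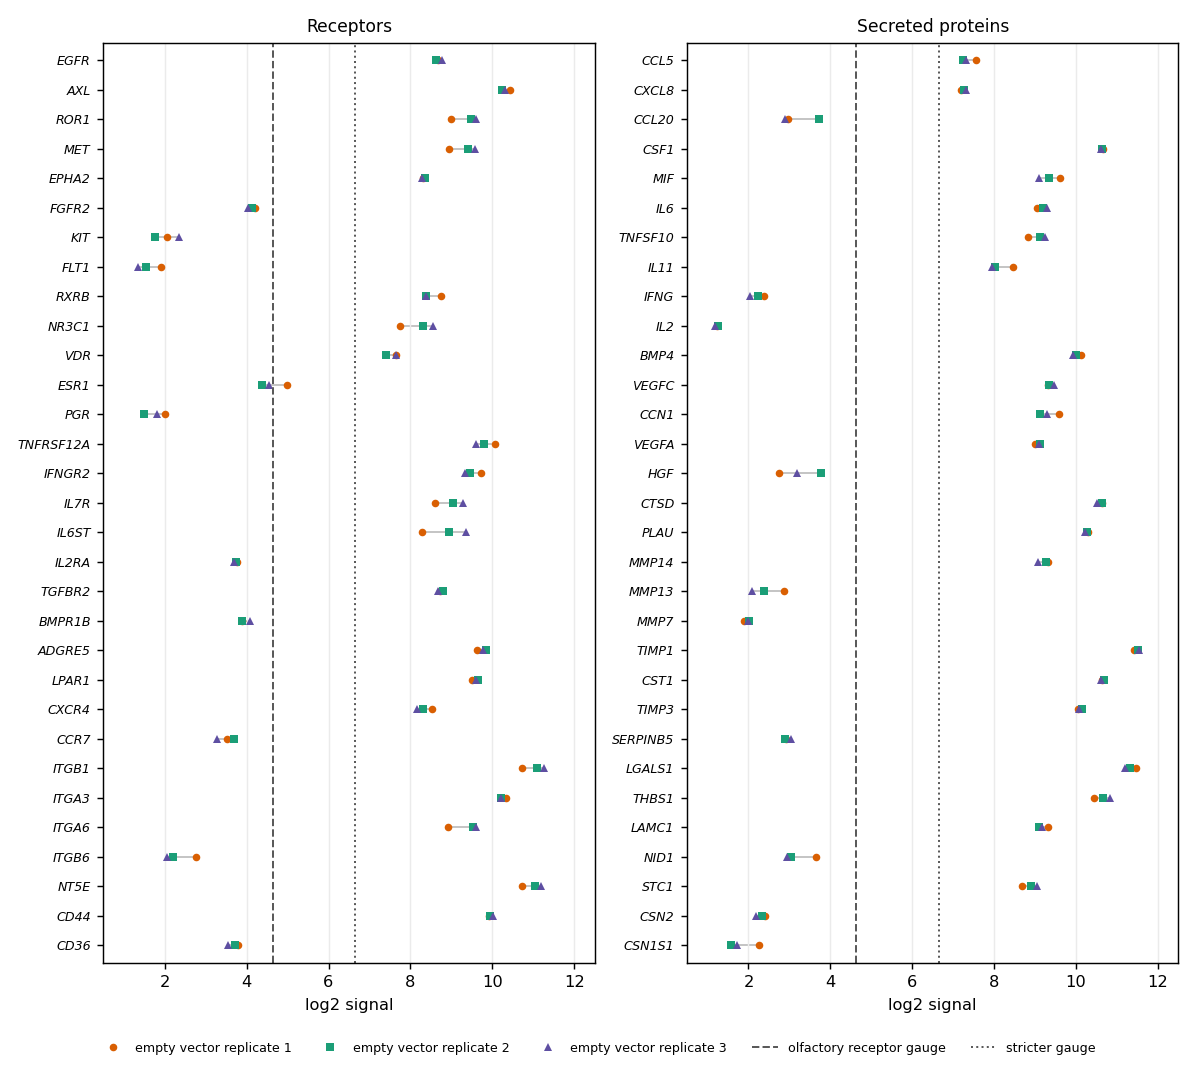
Log2 signal (x axis) of single receptor genes (left) and genes of secreted proteins (right) on each of the 3 empty vector arrays, with a circle, a square and a triangle for replicates 1, 2 and 3 and both gauges as vertical lines. *ESR1* crosses the olfactory receptor gauge from array to array, while *AXL*, *NT5E*, *CSF1* and *TIMP1* lie above 10 on all 3 arrays.

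Genes of secreted proteins fell into lists above and below the level of all genes. Protease inhibitors had the highest median, 7.93. Above the first gauge were 13 of 16 (81.2%, against 65.8% of all genes) and above the second 10 (62.5%, against 32.3%). *TIMP1*, an inhibitor of matrix metalloproteinases, gave 11.42, 11.51 and 11.53, and its relative *TIMP3*, which is bound to the matrix, 10.05, 10.14 and 10.07. *CST1*, a secreted cystatin, gave 10.64, 10.68 and 10.62, and *CSTB*, an intracellular one, 10.55, 10.50 and 10.50. *SERPINB5*, or maspin, of mammary epithelium, was below the gauge with 2.91, 2.88 and 3.03.

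Of 21 proteases, 13 (61.9%, against 65.8% of all genes) and 10 (47.6%, against 32.3%) were above the gauges. *CTSD*, the lysosomal cathepsin D, gave 10.64, 10.63 and 10.52, and *PLAU*, urokinase, the ligand of PLAUR, 10.30, 10.27 and 10.22. *MMP14*, a membrane-bound metalloproteinase, gave 9.32, 9.26 and 9.06, and *CTSL*, cathepsin L, 9.28, 9.13 and 9.07. The metalloproteinases were not uniform, since *MMP13*, collagenase 3, gave 2.87, 2.37 and 2.08 and *MMP7*, matrilysin, 1.89, 2.01 and 2.00, both below the gauge. Of 20 matrix genes, 16 (80%, against 65.8%) and 9 (45%, against 32.3%) were above. *LGALS1*, galectin 1, gave 11.45, 11.32 and 11.21, *THBS1*, thrombospondin 1, 10.44, 10.67 and 10.83, and *LAMC1*, a laminin chain, 9.32, 9.11 and 9.16. *NID1*, nidogen 1 of basement membranes, was below the gauge with 3.64, 3.04 and 2.95.

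Growth factors were above the first gauge in 20 of 27 (74.1%, against 65.8% of all genes). Above the second were 12 (44.4%, against 32.3%), and the median was 6.20. *BMP4* gave 10.13, 10.00 and 9.93. The vascular growth factors *VEGFC* (9.31, 9.33 and 9.46) and *VEGFA* (9.01, 9.12 and 9.10) were above both gauges. So were *CCN1* (9.57, 9.12 and 9.29) and *CCN2* (8.62, 8.69 and 8.43), matricellular targets of the factor YAP.

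Interleukins and other cytokines were above the first gauge in 11 of 22 (50%, against 65.8% of all genes). Above the second were 7 (31.8%, close to the 32.3% of all genes). Below the first gauge were 9, beside 24.7% of all genes. *CSF1*, the growth factor of macrophages, gave 10.66, 10.64 and 10.61. *MIF*, macrophage migration inhibitory factor, gave 9.60, 9.34 and 9.09, and *IL6* 9.05, 9.19 and 9.28. *TNFSF10*, or TRAIL, the ligand of death receptors, gave 8.82, 9.11 and 9.25, and *IL11* 8.45, 8.03 and 7.95. The 3 lowest means of the list belonged to genes that T cells use, with *IL2* at rank 17661 (1.23, 1.25 and 1.19), *IL4* at 1.81, 2.44 and 1.84 and *IFNG*, interferon gamma, at 2.37, 2.22 and 2.03.

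Of 18 chemokines, 12 (66.7%, against 65.8% of all genes) were above the first gauge and 2 (11.1%, against 32.3%) above the second. The 2 were *CCL5*, a chemokine of T cells and macrophages, with 7.55, 7.25 and 7.32, and *CXCL8*, which attracts neutrophils, with 7.19, 7.26 and 7.32. *CCL20* was below the first gauge with 2.96, 3.73 and 2.89. Of 19 hormones and milk proteins, 9 (47.4%) and 3 (15.8%) were above the gauges, with a median of 4.50. Both shares were below those of all genes. The caseins *CSN2* (2.41, 2.34 and 2.20) and *CSN1S1* (2.26, 1.59 and 1.73) were below the first gauge.

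Replicates 2 and 3 were closer to each other than either was to replicate 1. Pearson's r over 17687 genes was 0.9943 between replicates 2 and 3, 0.9866 between 1 and 2 and 0.9812 between 1 and 3, as a description across genes that are not independent. The median absolute difference was 0.14, 0.22 and 0.26 in the same order. Differences over 2-fold were seen in 16 genes (0.0905%) between replicates 2 and 3, in 176 (0.995%) between 1 and 2, and in 477 (2.7%) between 1 and 3. Among genes above the olfactory receptor gauge, replicate 1 was lower by more than 2-fold in 66 genes against replicate 2 and higher in 2, and lower in 314 and higher in 4 against replicate 3. The SD of the whole array was 2.11 on replicate 1, 2.17 on replicate 2 and 2.18 on replicate 3.

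The SD of a gene over the 3 arrays had a median of 0.17 over all genes and of 0.16 above the olfactory receptor gauge. It exceeded 0.5 in 391 of the genes above the gauge (3.36%), of which 382 (97.7%) had their lowest value on replicate 1 and 370 their highest on replicate 3. Without replicate 1 this count was 19, and without replicate 2 it was 878. The genes of widest spread were thus set mainly by 1 array. By signal, the median SD was 0.17 in the lowest of 5 equal groups above the gauge and 0.13 in the highest.

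The 12 genes of largest SD above the gauge ran from 0.86 to 1.12, and all 12 were lowest on replicate 1 and highest on replicate 3. *ESF1*, a nucleolar protein, gave 5.38, 6.91 and 7.56, and *DNM1L*, a GTPase of mitochondrial fission, 4.71, 6.36 and 6.68. *CEP290*, a centrosome and cilium protein, gave 4.69, 6.23 and 6.40, and *THOC2*, of the TREX complex for mRNA export, 4.89, 6.27 and 6.57. *DNM1L* and *CEP290* lay below the olfactory receptor gauge on replicate 1 alone, and for them the call above it passed at adjusted p = 0.0318 and 0.0348. These calls and that of *THOC2* were lost without replicate 2. *SMC5* (5.42, 6.59 and 7.11) and *SMC6* (6.27, 7.45 and 7.95) form 1 complex of DNA repair. *CALD1*, caldesmon, which binds actin and tropomyosin, gave 6.01, 7.07 and 7.77. *UACA* gave 7.40, 8.54 and 9.12 and alone among the 12 was above the stricter gauge. The others were *ZNF845*, *BBX*, *DNAJC2* and *LARP7*, the last a protein that binds 7SK RNA.

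The differences between arrays were ordered by the genomic span of the genes. Genes above the gauge were put into 5 equal groups by the length from the first to the last annotated base, with median spans of 4.32, 13.1, 26.9, 53.3 and 140 kb. The median of replicate 1 minus the mean of replicates 2 and 3 was 0.18 in the shortest genes, then 0.10, 0.01, -0.09 and -0.19 in the longest. Replicate 2 minus replicate 3 went the same way with smaller values, 0.07, 0.04, -0.0046, -0.04 and -0.10. The share of genes with an SD over 0.5 was 0.258% in the shortest group and 7.13% in the longest, and the 391 genes had a median span of 66.3 kb, against 26.9 kb for all. The part of gene length in the spread between arrays was not tested further, and the 3 arrays carry no label of a batch.

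**Figure D5:**
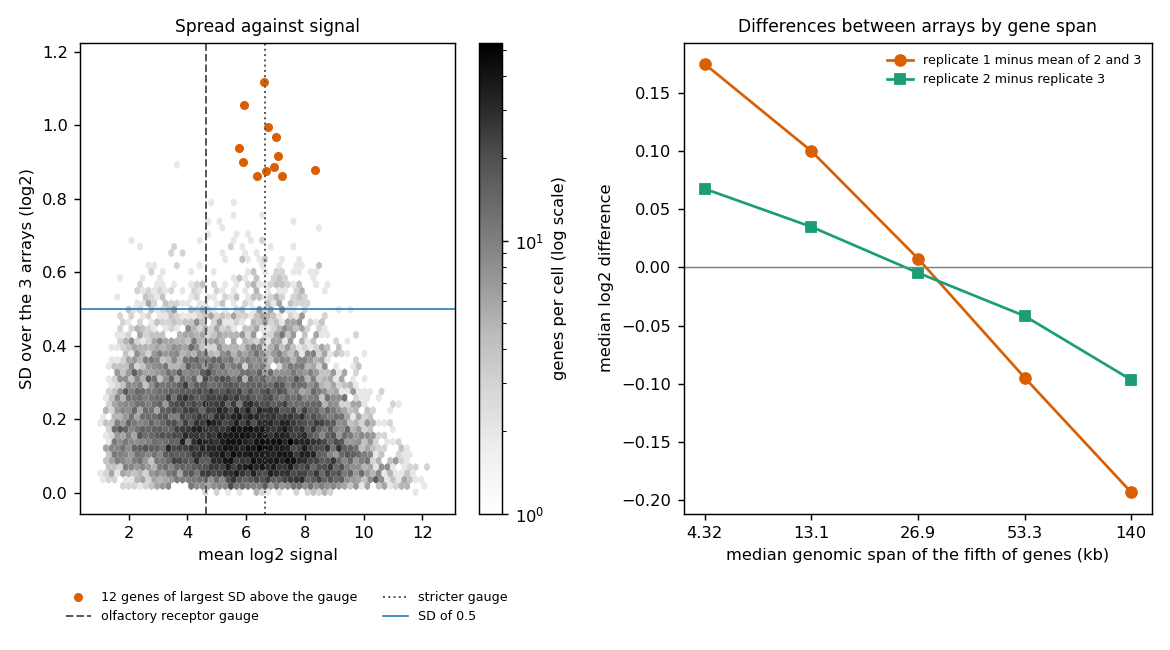
Left, SD over the 3 arrays against the mean log2 signal as a density of genes (grey, log scale), with the 12 genes of largest SD above the gauge in orange, a line at an SD of 0.5 and both gauges. Right, median log2 difference of replicate 1 from the mean of replicates 2 and 3 (orange) and of replicate 2 from replicate 3 (green) in 5 groups of genes by genomic span (kb, groups evenly spaced), falling from 0.18 to -0.19 and from 0.07 to -0.10.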

How the data were processed

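The study's authors hybridised labelled cDNA of MDA-MB-231 cells to Clariom S arrays and deposited RMA values on the log2 scale, 1 per probe set and array. They came with no detection p-values, and the sources used here give neither the software version nor the annotation behind them. Arrays have no read depth, and their number, 3, limits the precision. The 3 empty vector arrays were used, with 0 columns of another series.

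Probe sets were named through the platform annotation and RefSeq gene IDs (GRCh38.p14). All 17709 matched, and 20 genes with several probe sets took the one of highest mean. Each value minus the gauge of its array was tested against 0, two-sided, with the moderated linear model of limma (3.58.1, under R 4.3.3), and p-values were adjusted by Benjamini-Hochberg across the 21448 probe sets. The gauge was treated as fixed, so p-values cover only the spread between arrays. The procedure was tested on simulated data. There are 36 gene lists, whose listed genes without a probe set are not analysed here. The genes named were the 25 of highest mean, up to 5 highest and 4 lowest members of each list, the receptors of the clinical classification, the 12 of largest SD, the 3 nearest the gauge on each side and *AAGAB*. *RPL10L* and *MTRNR2L8* fall outside it and were chosen after their values or position were seen. The members and lists were chosen with earlier results of these data known. Other gauges, a call without a test, quantile normalization, averaged probe sets and leaving out each array were the alternatives. Promoters and the microRNA came from RefSeq tables (GRCh38.p14), and 14250 genes had a promoter. Protein lengths, planned as a description, were not computed.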

Additional observations from a re-analysis of the deposited data

How the results depend on the processing

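With the stricter gauge, 5721 genes were above and 10127 below, and the members above fell to 5 of the basal, 5 of the luminal, 1 of the blood cell, 1 of the endothelial, 1 of the fibroblast and 3 of the stem-like lists, and to 0 of the neuronal, 0 of the hepatocyte, 0 of the muscle and 0 of the melanocyte lists. They fell to 5 nuclear receptors, 8 receptor tyrosine kinases, 3 TGF-beta family receptors, 4 G protein-coupled receptors, 8 integrins, 4 receptors of Notch, Wnt and Hedgehog, 2 chemokines, 7 interleukins and other cytokines, 12 growth factors, 9 matrix genes and 3 hormones and milk proteins. Distances from the gauge turned negative for *CNN1* (-1.82), *KRT5* (-0.97), *ACTA2* (-0.77), *HBA1* (-0.13), *GZMB* (-0.18), *VWF* (-0.36), *MBP* (-0.34), *SERPINA1* (-0.97), *ACTN2* (-0.11), *HLA-DQA1* (-1.82), *ESF1* (-0.0368), *DNM1L* (-0.74), *CEP290* (-0.88), *THOC2* (-0.74) and *SMC5* (-0.28). *MITF*, *ZNF845*, *BBX*, *DNAJC2*, *CALD1*, *LARP7* and *SMC6* kept a positive distance and were no longer called. The higher gauge by construction gives these shifts.

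With the 99th percentile of the olfactory receptor genes (gauge 5.28, 54.8% of genes above), 5 endothelial, 3 neuronal and 1 hepatocyte genes were above, and *CNN1* (-0.44) and *HLA-DQA1* (-0.45) turned. *DNM1L* (0.64), *CEP290* (0.49) and *THOC2* (0.63) were no longer called, and *ESR1* (-0.65) and *FOXA1* (-0.82) were called below. With the 90th percentile (4.14, 73.4%), 14 luminal, 5 muscle and 6 fibroblast genes were above. *ESR1* (0.49) and *FOXA1* (0.31) turned positive and were called above. *ERBB3* (0.0446) and *PECAM1* (0.0375) turned positive and were not called. *KRT14* (-0.24), *GREB1* (-0.0193), *THY1* (-0.11), *FGFR2* (-0.0158) and *BMPR1B* (-0.19) were no longer called below. *CNN1* (0.695) and *HLA-DQA1* (0.69) were called above. With no test, 5 muscle and 5 fibroblast genes were above. In that setting *CNN1* was called above and *FOXA1* below, and *DNM1L* and *CEP290* were no longer called. Quantile normalization of the 3 arrays and averaged probe sets changed no call of the 176 named genes. Without replicate 1, 2 or 3 in turn, 1, 4 and 1 of these calls changed their side of the threshold. These were *HLA-DQA1* (0.29, now above) without replicate 1, *ERBB3* (-0.41), *DNM1L* (1.02), *CEP290* (0.87) and *THOC2* (1.06) without replicate 2, and *GREB1* (-0.34) without replicate 3, the last 5 no longer called.

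Leaving out 1 array moved the genes with an SD over 0.5 (391) to between 19 and 878, the lowest without replicate 1. The mean correlation between arrays (0.9874) ranged from 0.9812 to 0.9943, and the mean of the median absolute differences (0.206) from 0.1361 to 0.2644. Replicates 2 and 3 alone gave 0.9943 and 0.1361. No paired analysis was possible because only 1 group of arrays was used.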

Other observations

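The 3739 probe sets that were unnamed here were left out of the ranking. Of these, 1973 (52.8%) were above the olfactory receptor gauge, against 65.8% of the named genes. At an unadjusted p under 0.05, 13651 of the 21448 probe sets were above it.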
